A study of Mus musculus with 14 samples.

Results

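Inhibitory receptors restrain activated T cells, and 8 such genes were followed here across effector CD8+ T cells of 5 kinds. The members were chosen by name: Ctla4, Btla, Havcr2, Pdcd1, Lag3, Tigit and Cd160, which encode receptors, and Entpd1, which encodes the ectoenzyme CD39. Each had 1 probe set on the array, and all 8 were among the 14438 genes tested, of 19937 genes named. Of the 8, 7 were above the 40th percentile of signal on all 14 arrays, and Ctla4 was above it on 13, the exception being WT KLRG1hi array 1.

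The arrays were hybridised with RNA of mouse OT-I CD8+ T cells sorted on day 6 of infection with Listeria that expresses ovalbumin, the antigen of the OT-I receptor. The 5 kinds of cells compared were all of strain C57BL/6J, grown from fetal liver chimeras and moved into congenic recipients before infection, with no age, allele or deleting Cre given in the labels used here. They were Id2KOBimKO KLRG1lo (2 arrays), Id2KO KLRG1lo (2), BimKO KLRG1lo (2), WT KLRG1hi (3) and WT KLRG1lo (5), and the source label of the Id2KOBimKO arrays does not repeat OT-I. Id2 encodes an inhibitor of the DNA-binding E proteins, Bcl2l11 encodes Bim, which promotes cell death, and KLRG1 is a receptor of terminal effector cells that was used for the sort.

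Inhibitory receptors carry signals against activation, often through phosphatases that bind their tails, or take ligands away from stimulatory receptors. CTLA-4 competes with CD28 for CD80 and CD86, BTLA and CD160 bind the herpesvirus entry mediator encoded by Tnfrsf14, PD-1 (Pdcd1) binds the ligands encoded by Cd274 and Pdcd1lg2, TIGIT competes with CD226 for the poliovirus receptor, LAG-3 binds MHC class II, and TIM-3 (Havcr2) has several ligands. CD39 breaks down extracellular ATP on the path to adenosine. Effector T cells induce many of these genes upon activation, and they stay high in exhausted cells of chronic infection.

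Because Id2 acts on E proteins, the promoter windows of the 4 genes that carry the results are shown, with each match to the E-box letters CANNTG in capitals. The windows run from 250 bases before to 50 bases after a RefSeq start site in the build GRCm38.p6, are written in the direction of transcription, and are credited to RefSeq.
Ctla4, chr1:60908775-60909074, plus strand: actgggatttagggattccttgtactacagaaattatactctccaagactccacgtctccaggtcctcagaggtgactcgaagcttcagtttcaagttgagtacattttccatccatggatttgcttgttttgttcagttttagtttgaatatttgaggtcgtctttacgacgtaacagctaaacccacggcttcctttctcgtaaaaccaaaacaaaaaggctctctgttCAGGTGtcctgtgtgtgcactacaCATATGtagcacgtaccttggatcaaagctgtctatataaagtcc
Btla, chr16:45224087-45224386, plus strand: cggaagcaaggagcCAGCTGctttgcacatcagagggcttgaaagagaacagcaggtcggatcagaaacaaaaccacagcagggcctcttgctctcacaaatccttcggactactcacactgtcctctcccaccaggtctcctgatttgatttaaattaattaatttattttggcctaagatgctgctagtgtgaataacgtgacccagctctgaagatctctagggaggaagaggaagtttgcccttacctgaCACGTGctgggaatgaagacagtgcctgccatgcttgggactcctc
Havcr2, chr11:46454681-46454980, plus strand: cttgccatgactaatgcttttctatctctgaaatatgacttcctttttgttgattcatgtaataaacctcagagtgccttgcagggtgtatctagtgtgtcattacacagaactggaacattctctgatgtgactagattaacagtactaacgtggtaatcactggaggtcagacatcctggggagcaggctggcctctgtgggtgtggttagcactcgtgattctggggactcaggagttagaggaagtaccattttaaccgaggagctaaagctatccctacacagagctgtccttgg
Entpd1 upstream start, chr19:40612116-40612415, plus strand: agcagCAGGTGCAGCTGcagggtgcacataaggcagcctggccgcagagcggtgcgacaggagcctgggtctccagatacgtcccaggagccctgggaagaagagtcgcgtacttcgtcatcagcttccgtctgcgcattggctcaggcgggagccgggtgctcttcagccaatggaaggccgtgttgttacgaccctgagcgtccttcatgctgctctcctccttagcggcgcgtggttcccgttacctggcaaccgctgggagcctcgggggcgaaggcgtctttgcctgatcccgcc
Entpd1 downstream start, chr19:40659520-40659819, plus strand: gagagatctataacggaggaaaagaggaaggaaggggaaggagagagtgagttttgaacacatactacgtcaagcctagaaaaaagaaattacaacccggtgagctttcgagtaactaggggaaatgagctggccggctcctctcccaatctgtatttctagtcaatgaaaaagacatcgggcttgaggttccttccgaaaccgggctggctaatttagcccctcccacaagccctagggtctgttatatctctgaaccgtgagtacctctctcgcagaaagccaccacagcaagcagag
The E-box letters read the same on both strands. Ctla4 had 2 matches, CAGGTG at 19 bases before the start and CATATG just after it. Btla also had 2, CAGCTG at 236 bases before the start and CACGTG just after it. The upstream window of Entpd1 had CAGGTG and CAGCTG side by side, at 245 and 239 bases before the start, while its downstream window and the window of Havcr2 held none. Of 32851 windows of the same length in the table, 72.3% held CANNTG, so a match is common, and a match or its lack says nothing about binding. Windows were found for 7 of the 8 members: Tigit had 2 matches, Pdcd1 none, and the windows of Cd160 3 and 1.

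Array medians lay between 49.2 and 56.8 on the linear scale. The spread of an array, taken as the interquartile range of its log2 values, ran from 2.44 to 2.87, with 2.83 and 2.87 on the Id2KO arrays and 2.46 to 2.82 in WT KLRG1lo. By the median signal of probe sets with no gene name, the arrays were also parted at the largest gap into set 1 (6 arrays, 5.01 to 5.07 log2) and set 2 (8 arrays, 5.16 to 5.39 log2), a division that the labels do not name. Signal of Id2 itself fell by 1.13 log2 when Id2KO was set against WT KLRG1lo (SE 0.19, limma adjusted p = 0.0162). It still averaged 9.80 log2 in Id2KO and 9.74 on arrays labelled Id2KOBimKO, against 10.93 in WT KLRG1lo. Bcl2l11 averaged 7.51 ± 0.21 log2 on the arrays labelled BimKO (SD, n = 2) and 7.60 ± 0.19 in WT KLRG1lo (SD, n = 5), so its signal did not bear out that label. The labels do not say whether its probe set lies in the deleted part, and directions drawn from these arrays and from those labelled Id2KOBimKO rest on the labels. Xist, which coats the silenced X chromosome, averaged 4.73 ± 0.37 in Id2KO (SD, n = 2) and 8.90 or more in each other group, so donor sex and Id2 genotype cannot be told apart when Id2KO is set against WT. Cd8a was high in each group, with means from 11.44 to 11.83 log2, while Cd4 averaged 5.13 to 5.60 and Foxp3 5.95 to 6.24.

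**Figure D1:**
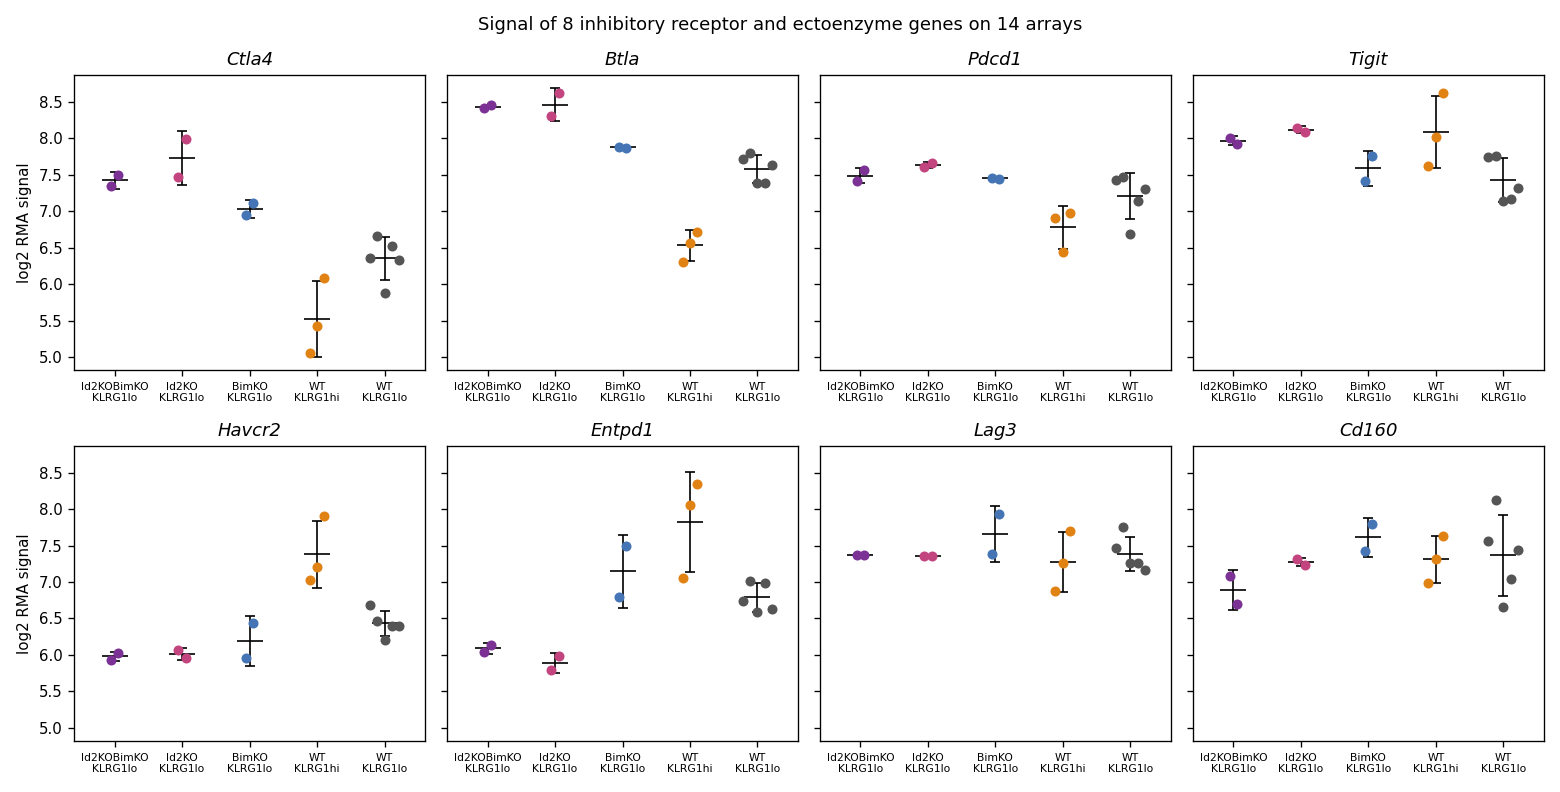
Log2 RMA signal (vertical axis) of the 8 genes in the 5 groups, with a point for each array and a bar for the mean and SD. Ctla4 and Btla were lowest in WT KLRG1hi and highest in the groups labelled Id2KO and Id2KOBimKO. Havcr2 and Entpd1 ran the other way, and the group ranges of Lag3 largely overlapped.

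The WT sorts were compared to describe how the receptors part terminal effector cells from the KLRG1lo population. Of the 8 genes, 3 passed at an adjusted p under 0.05: Havcr2 and Entpd1 were higher in KLRG1hi cells and Btla was lower. Over all genes tested 0.942% passed this comparison, and 7.2% had an unadjusted p under 0.05, as did 6 of the 8. The arrays did not overlap for these same 3 of 8 genes, against 4.18% of all genes. The median difference of the 8 was -0.08 log2, and that of all genes tested was 0.00165.

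Btla, the receptor for the herpesvirus entry mediator, read 6.31, 6.57 and 6.72 log2 in WT KLRG1hi, against 7.71, 7.80, 7.39, 7.38 and 7.63 in WT KLRG1lo. Each KLRG1hi array was below each KLRG1lo array. The difference was -1.05 log2 (SE 0.15, 95% interval -1.36 to -0.74, adjusted p = 0.00119), or 2.07-fold lower in KLRG1hi, and 0.222% of genes lay at or below it. It passed under each of the 18 alternatives run for this comparison, with an adjusted p of at most 0.0198. It was -1.32 within set 1 and -0.75 within set 2.

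Havcr2, which encodes TIM-3, read 7.03, 7.21 and 7.90 log2 in WT KLRG1hi, against 6.69, 6.47, 6.20, 6.40 and 6.40 in WT KLRG1lo. The KLRG1hi arrays were again apart, here on the high side, and array 3 was the highest. The rise was 0.95 log2 (SE 0.18, 95% interval 0.56 to 1.34, adjusted p = 0.0178), a fold of 1.93. It was 0.54 within set 1 and 1.57 within set 2, whose only KLRG1hi array was array 3. The call held in 13 of 18 alternatives and was lost without WT KLRG1hi replicates 2 or 3 (adjusted p = 0.0607 and 0.0553), without WT KLRG1lo replicate 5 (adjusted p = 0.0513), with only the groups compared (adjusted p = 0.0539) and with a replicate block (adjusted p = 0.19).

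Entpd1, the gene of the ATP-degrading enzyme CD39, read 7.05, 8.07 and 8.35 log2 in WT KLRG1hi, against 6.74, 7.01, 6.59, 6.99 and 6.63 in WT KLRG1lo. The groups did not overlap, but KLRG1hi array 1 lay just above the highest KLRG1lo array. The rise was 1.03 log2 (SE 0.24, 95% interval 0.53 to 1.53, adjusted p = 0.0467), a fold of 2.04, and within sets 1 and 2 it was 0.69 and 1.61. This call is close to the threshold: it held in 8 of 18 alternatives, with adjusted p-values from 0.00081 without WT KLRG1hi replicate 1 to 0.319 without WT KLRG1hi replicate 2.

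Myeloid, dendritic and NK cells also express some of these genes, so lists of their markers were read on the same arrays. Lyz2, the lysozyme of myeloid cells, read 5.36, 4.98 and 5.15 log2 in WT KLRG1hi, against 5.26, 5.59, 6.75, 8.44 and 6.71 in WT KLRG1lo. Cd74, of antigen-presenting cells, read 5.53, 5.54 and 4.88 in WT KLRG1hi, against 5.73, 5.73, 8.46, 8.73 and 7.98 in WT KLRG1lo. Neither difference passed (-1.39 and -2.0, adjusted p = 0.482 and 0.398). Of 8 monocyte and macrophage markers 7 were named on the array and 6 tested, of which Itgam, also expressed by effector T cells, rose by 2.32 (adjusted p = 1.21e-05), with 3 of the 6 positive and a median of -0.03. The log2 of their summed signal, to which Itgam adds, ran from 10.13 to 10.94 in WT KLRG1hi and from 9.31 to 10.01 in WT KLRG1lo. Of 8 dendritic cell markers, Cd74 among them, all were tested, none passed and 2 were positive. Itgax, the integrin CD11c, had the smallest p of these, at 0.66 (SE 0.20, adjusted p = 0.181). The summed signal ran from 10.60 to 11.34 in WT KLRG1hi and from 10.56 to 10.88 in WT KLRG1lo. Itgax alone averaged 10.63 and 9.96 in these groups, so it makes up much of this sum. Of 6 NK cell markers 5 were tested, 4 were positive and the median was 0.62. Klrb1c, which encodes the NK receptor NK1.1, rose by 2.92 (SE 0.29, adjusted p = 3.12e-05), and Nkg7, a granule protein of cytotoxic cells, was at 0.62 (adjusted p = 0.61). The summed NK signal ran from 11.94 to 12.59 in WT KLRG1hi and from 11.25 to 12.21 in WT KLRG1lo. Nkg7 alone averaged 11.75 and 11.13 in these groups, so it makes up much of the NK sum. The part of these markers in the Havcr2 and Entpd1 differences was not tested. In such bulk samples, fewer cells of a type and less RNA per cell cannot be told apart.

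The other 5 genes did not pass between the WT sorts. Ctla4, the competitor of CD28, read 5.06, 5.42 and 6.08 log2 in WT KLRG1hi, against 6.36, 6.66, 5.88, 6.53 and 6.34 in WT KLRG1lo. KLRG1hi array 3 reached into the KLRG1lo range, and the lowest KLRG1hi values were close to those of probe sets with no gene name, which leaves the size of the difference uncertain. It was -0.83 (SE 0.22, adjusted p = 0.0954), and it passed without WT KLRG1hi replicate 3 (-1.11, adjusted p = 0.00886) and with the array spread as a covariate (adjusted p = 0.00324).

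Tigit, which competes with CD226, read 7.63, 8.02 and 8.62 log2 in WT KLRG1hi, against 7.74, 7.76, 7.15, 7.17 and 7.32 in WT KLRG1lo. The groups overlapped through KLRG1hi array 1, and the difference was 0.66 (SE 0.21, adjusted p = 0.235), with 0.07 within set 1 and 1.41 within set 2. Across the 14 arrays Tigit had a Pearson correlation of 0.803 with the array spread, the highest of the 8 genes. Lag3 had 0.612, Ctla4 0.596, Cd160 0.540, Pdcd1 0.500 and Btla 0.474, while Entpd1 had -0.08 and Havcr2 -0.003. Tigit passed with the spread as a covariate (0.56, adjusted p = 0.00812), with quantile normalization (adjusted p = 0.0391) and without WT KLRG1hi replicate 1 (adjusted p = 0.0433). Without WT KLRG1hi replicate 3 it was 0.39 (adjusted p = 0.459). Pdcd1, the gene of PD-1, read 6.91, 6.44 and 6.98 log2 in WT KLRG1hi, against 7.44, 7.47, 6.69, 7.14 and 7.30 in WT KLRG1lo. Its groups overlapped through KLRG1lo array 3, and the difference was -0.43 (SE 0.18, 95% interval -0.80 to -0.06, adjusted p = 0.544).

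Lag3 and Cd160 had the smallest differences of the 8 between the sorts. Lag3, the receptor for MHC class II, was at -0.10 (95% interval -0.50 to 0.30, adjusted p = 1.00), with -0.54 within set 1 and 0.47 within set 2. Cd160, which shares its ligand with BTLA, was at -0.05 (95% interval -0.59 to 0.48, adjusted p = 1.00), with -0.70 and 0.59. Cd160 varied more than the other members among WT KLRG1lo arrays, where it read 7.56, 8.13, 6.66, 7.05 and 7.44 log2. These intervals leave room for differences of either sign.

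**Figure D2:**
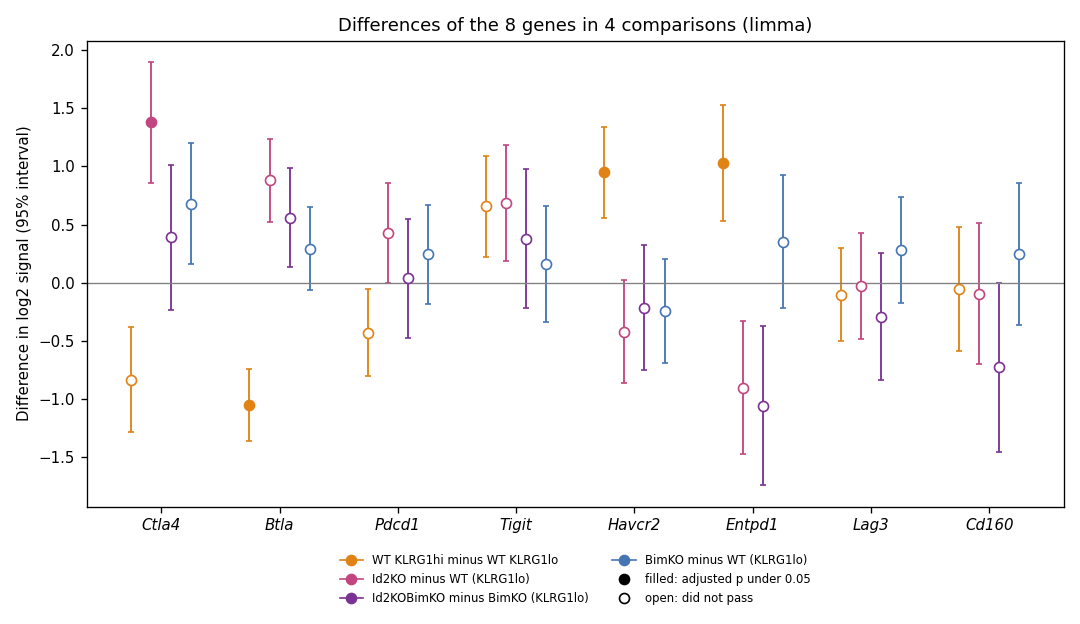
Difference in log2 signal (vertical axis) of each gene in 4 comparisons, as the limma estimate with its 95% interval, filled where the adjusted p was under 0.05. Btla fell and Havcr2 and Entpd1 rose in WT KLRG1hi, Ctla4 rose in Id2KO, and the intervals of Lag3 all span 0.

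How the receptors stand in cells with Id2 deleted was read from Id2KO against WT, both KLRG1lo. Ctla4 rose, and it was the only one of the 8 genes to pass, where 0.111% of all genes did. The arrays of the groups did not overlap for 6 of the 8 genes, 4 higher and 2 lower in Id2KO, where 28.5% of all genes were so parted. An unadjusted p under 0.05 was seen for 5 of the 8 and for 18.1% of all genes. The median difference of the 8 was 0.20 log2, against 0.03 for all genes tested.

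Ctla4 read 7.47 and 8.0 log2 in Id2KO, against 6.36, 6.66, 5.88, 6.53 and 6.34 in WT KLRG1lo. Both Id2KO arrays were above all WT arrays. The rise was 1.38 (SE 0.25, 95% interval 0.86 to 1.90, adjusted p = 0.0306), a fold of 2.60, with 0.96 within set 1 and 1.75 within set 2. It held in 8 of 17 alternatives. Adjusted p-values were 0.792 without Id2KO replicate 2 and 0.109 without Id2KO replicate 1, 0.0534 to 0.0975 without WT KLRG1lo replicates 1, 3, 4 or 5, and 0.118, 0.264 and 0.265 with quantile normalization, the array spread as a covariate and a replicate block.

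Btla read 8.31 and 8.62 log2 in Id2KO, above the highest WT KLRG1lo array at 7.80. The difference was 0.88 (SE 0.17, 95% interval 0.52 to 1.24), and it missed the threshold at an adjusted p of 0.0601. Without WT KLRG1lo replicate 2 it passed (adjusted p = 0.0278), as it did with an offset of 16 (adjusted p = 0.0332). It was 0.64 with quantile normalization (adjusted p = 0.163) and 0.62 with the array spread as a covariate (adjusted p = 0.261), and the adjusted p was 0.569 with a replicate block and 0.792 without Id2KO replicate 2. Within sets 1 and 2 it was 0.55 and 1.16. Tigit read 8.15 and 8.08 in Id2KO, also above the WT KLRG1lo arrays, at a difference of 0.69 (SE 0.24, adjusted p = 0.275). That of Tigit was 0.16 once array spread was a covariate (adjusted p = 1.00). Pdcd1 read 7.61 and 7.66 in Id2KO against at most 7.47 in WT KLRG1lo, at 0.43 (SE 0.20, adjusted p = 0.275), or 0.23 with the spread as a covariate.

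Entpd1 and Havcr2 lay on the other side. Entpd1 read 5.80 and 5.99 log2 in Id2KO, below the lowest WT KLRG1lo array at 6.59, at a difference of -0.90 (SE 0.27, 95% interval -1.47 to -0.33, adjusted p = 0.275). Havcr2 read 6.07 and 5.96 in Id2KO, under the lowest WT array at 6.20, at -0.42 (SE 0.21, adjusted p = 0.275). Neither passed. Lyz2 was at -1.34 and Cd74 at -2.19 in this comparison (adjusted p = 0.275 for each), while Itgam was at 1.07 (adjusted p = 0.107). Of 6 monocyte and macrophage markers tested 1 was positive, with a median of -0.35. Of 8 dendritic cell markers 1 was positive, with a median of -0.43. None of these markers passed, and the part of such signal in the Entpd1 and Havcr2 values was not tested. Lag3 (-0.02, 95% interval -0.48 to 0.43) and Cd160 (-0.09, 95% interval -0.70 to 0.52) lay within the WT range. With the array spread as a covariate Lag3 was at -0.45 and Cd160 at -0.76, which did not pass (adjusted p = 1.00 and 0.331).

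**Figure D3:**
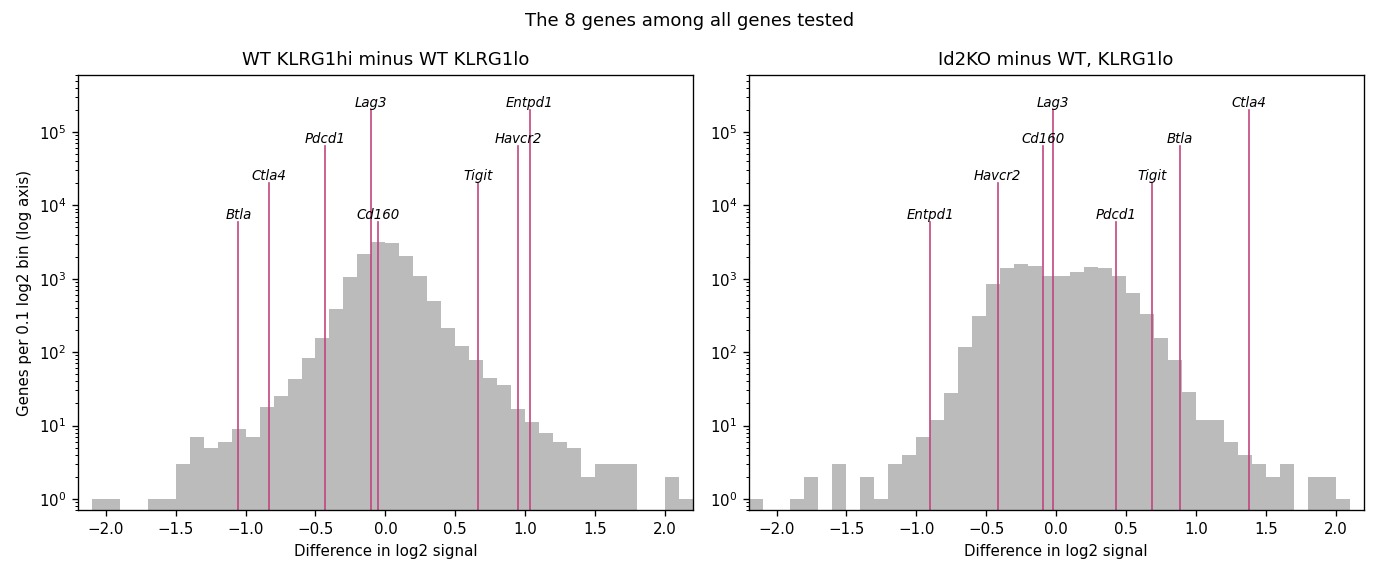
Number of genes per bin of log2 difference (vertical axis, log scale) for WT KLRG1hi minus WT KLRG1lo (left) and Id2KO minus WT in KLRG1lo cells (right), with the 8 genes marked by lines whose heights only separate the names. In the left panel Btla lies far to the left and Havcr2 and Entpd1 far to the right, and in the right panel Ctla4 and Btla lie to the right and Entpd1 to the left.

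Arrays labelled Id2KOBimKO were set against those labelled BimKO to read Id2 loss with Bim deleted in both, where Xist averaged 9.69 and 10.11 and so did not part the groups. By limma 0 of the 8 genes and 0% of all genes passed, while 2 of the 8, Btla and Entpd1, and 1.81% of all genes had an unadjusted p under 0.05. The groups' arrays were apart for 6 of the 8, with 29.7% of all genes so parted. Btla read 8.42 and 8.45 log2 on the arrays labelled Id2KOBimKO, against 7.89 and 7.87 on those labelled BimKO, a difference of 0.56 (SE 0.20, 95% interval 0.13 to 0.99, adjusted p = 1.00). Entpd1 read 6.03 and 6.14 on arrays labelled Id2KOBimKO, against 6.79 and 7.50 on those labelled BimKO, a difference of -1.06 (SE 0.32, 95% interval -1.74 to -0.37, adjusted p = 1.00). Within set 2, the only set with both groups, these were 0.58 for Btla and -1.0 for Entpd1. On the BimKO array with the higher Entpd1, Lyz2 was 7.35 and Cd74 was 8.63, against 5.63 and 5.21 on the other. Cd74 was 6.25 and 7.77 on the arrays labelled Id2KOBimKO. In WT KLRG1lo Cd74 read 5.73, 5.73, 8.46, 8.73 and 7.98, where Entpd1 read 6.74, 7.01, 6.59, 6.99 and 6.63. The part of such signal in the Entpd1 difference was not tested.

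Ctla4 read 7.34 and 7.51 log2 on arrays labelled Id2KOBimKO, against 6.95 and 7.12 on those labelled BimKO. The difference of 0.39 (SE 0.29, 95% interval -0.23 to 1.01) did not pass. Cd160 was at -0.72 (SE 0.34, 95% interval -1.45 to 0.002), Tigit at 0.38, Lag3 at -0.29, Havcr2 at -0.21 and Pdcd1 at 0.04, each with an adjusted p of 1.00. Cd160 read 7.09 and 6.70 on arrays labelled Id2KOBimKO, against 7.43 and 7.80 on those labelled BimKO, so its groups were apart here although they overlapped in Id2KO against WT.

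Taking the mean of both Id2 contrasts, Btla was the 1 gene of the 8 to pass, with 0.18% of all genes. It rose by 0.72 log2 (SE 0.13, 95% interval 0.44 to 1.00, adjusted p = 0.0261), a fold of 1.65, and held in 11 of 21 alternatives, with adjusted p-values from 0.0154 to 0.347. The call was lost without any 1 of the Id2KO, BimKO or Id2KOBimKO arrays, or of WT KLRG1lo replicates 4 and 5, where the difference stayed between 0.64 and 0.80. Entpd1 was at -0.98 (SE 0.21, adjusted p = 0.106) and Ctla4 at 0.88 (SE 0.19, adjusted p = 0.109), and both passed when only the 4 KLRG1lo groups were fitted (adjusted p = 0.00435 and 0.0188). Tigit was at 0.53, Pdcd1 at 0.23, Lag3 at -0.16, Havcr2 at -0.32 and Cd160 at -0.41, and none of these 5 passed. With the array spread as a covariate Cd160 was at -0.81 and passed (adjusted p = 0.0105). An unadjusted p under 0.05 was seen for 4 of the 8 genes and 7.11% of all genes. Xist was at -2.61 in this mean (limma, adjusted p = 0.000304), so donor sex enters it through the Id2KO arrays.

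The interaction of Id2 and Bim, which asks whether Id2 loss had a different size in the presence of Bim, was called by limma for 0 of the 8 genes and for 0.0277% of all genes. Only Ctla4 of the 8 had an unadjusted p under 0.05, at -0.99 (SE 0.38, 95% interval -1.80 to -0.18, adjusted p = 0.726), where 4.27% of all genes did. Havcr2 was at 0.21, and the other 6 lay between -0.63 for Cd160 and -0.16 for Entpd1, with Btla at -0.32, Pdcd1 at -0.39, Lag3 at -0.27 and Tigit at -0.31. The Id2KO arrays, which differ from the rest in Xist, enter this term too.

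Between arrays labelled BimKO and WT KLRG1lo, limma called 0 of the 8 genes and 0% of all genes, and 1 of the 8 and 6.91% of all genes had an unadjusted p under 0.05. That gene was Ctla4, at 6.95 and 7.12 log2 on the BimKO arrays against at most 6.66 in WT KLRG1lo, a difference of 0.68 (SE 0.25, 95% interval 0.16 to 1.20, adjusted p = 0.657). Btla was also apart, at 7.89 and 7.87 against at most 7.80, a difference of 0.29. Entpd1 was at 0.35, Lag3 at 0.28, Cd160 at 0.25, Pdcd1 at 0.24, Tigit at 0.16 and Havcr2 at -0.24, with overlapping arrays. Ctla4 and Btla are 2 of the 8 genes, with 12.6% of all genes so parted. Id2 itself was at -0.09 in this comparison. The median of the 8 was 0.26, against -0.02 for all genes.

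On arrays labelled Id2KOBimKO set against WT KLRG1lo, limma called 0 of the 8 genes and 0.0623% of all genes. An unadjusted p under 0.05 was seen for 5 of the 8 and 3.95% of all genes, and the arrays were apart for 5 of the 8 and 12.6% of all genes. Ctla4 was at 1.07 (SE 0.25, adjusted p = 0.266), Btla at 0.85 (SE 0.17, adjusted p = 0.122), Tigit at 0.54, Havcr2 at -0.45 and Entpd1 at -0.70. Pdcd1 was at 0.28, Lag3 at -0.01 and Cd160 at -0.48. The Id2KO, BimKO and Id2KOBimKO comparisons share the WT KLRG1lo arrays, and the KLRG1hi comparison shares them as well.

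In the order of group means, Ctla4 and Btla ran from Id2KO through Id2KOBimKO, BimKO and WT KLRG1lo to WT KLRG1hi, as did Pdcd1. For Btla only the Id2KO and Id2KOBimKO arrays overlapped between neighbours. For Ctla4 the neighbours Id2KO and Id2KOBimKO overlapped, and so did WT KLRG1lo and WT KLRG1hi. Havcr2 ran from WT KLRG1hi down to Id2KOBimKO, and below WT KLRG1hi its neighbours overlapped. Entpd1 ran from WT KLRG1hi through BimKO, WT KLRG1lo and Id2KOBimKO to Id2KO, where BimKO overlapped with both of its neighbours. Group means spanned 2.21 log2 for Ctla4, 1.93 for both Btla and Entpd1, 1.40 for Havcr2, 0.86 for Pdcd1, 0.72 for Cd160, 0.69 for Tigit and 0.38 for Lag3.

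Over the 14 arrays, which fall into the 5 groups and share the array spread, Ctla4 and Btla had a Pearson correlation of 0.951, and over the 11 KLRG1lo arrays of 0.934. Havcr2 and Entpd1 had 0.866 and 0.679, and Btla and Havcr2 had -0.83 and -0.68. Tigit and Btla had 0.061 over the 14 arrays and 0.891 over the KLRG1lo arrays. In WT KLRG1hi Tigit was high and Btla low. By the same measure over 14 arrays, the genes most like Btla were Carmil2 (0.987), Actn1 (0.977) and Myb (0.976), and those most like Ctla4 were Tnfrsf26 (0.970), Ikbke (0.964) and Apobec3 (0.964). Those most like Havcr2 were Klrb1c, an NK cell marker (0.958), Dock5 (0.953) and Fbxl2 (0.947), and those most like Entpd1 were Fgl2 (0.945), H2ac15 (0.942) and Aqp9 (0.933). The most alike were Fhl2 for Tigit (0.963), Fam102a for Pdcd1 (0.940), Rgs1 for Lag3 (0.925) and C1d for Cd160 (0.853), the lowest of these best matches.

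The partners of these receptors were read from lists. Of 14 ligands and binding partners 10 were tested, and between the WT sorts 1 rose and none fell, with 0.942% of all genes passing. The 1 was Lgals3 (galectin-3, a ligand of LAG-3), which rose by 0.99 log2 (SE 0.21, adjusted p = 0.029). Tnfrsf14, the ligand of BTLA and CD160, was at -0.37 there (adjusted p = 0.732). In Id2KO against WT none of the 10 passed: Cd80, a ligand of CTLA-4, was at 0.84 (SE 0.24, adjusted p = 0.275), and Pvr, the ligand of TIGIT, at 0.83 (SE 0.27, adjusted p = 0.275). Of 4 receptors that share a ligand or family with members, none passed, with Cd28 at -0.48 in WT KLRG1hi against KLRG1lo and at 0.59 in Id2KO against WT, and Icos at -0.32 and 0.48.

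Of 18 signal transducers, all tested, none passed in either comparison. Their median was 0.38 in Id2KO against WT, where all 18 were positive, and 0.07 between the WT sorts, against 0.03 and 0.00165 over all genes. The 7 CD8 T cell markers tested were also all positive in Id2KO, with a median of 0.33. The Id2KO arrays had spreads of 2.83 and 2.87, and the part of array spread in these signs was not tested. Sit1, a transmembrane adaptor that binds a phosphatase, was at 0.85 in Id2KO (SE 0.24, adjusted p = 0.275). Of 12 genes of the adenosine pathway 8 were tested and none passed. Nt5e, which encodes CD73, the enzyme that acts after CD39, was at -0.89 as the mean Id2 effect (SE 0.26, adjusted p = 0.414). It averaged 5.67 log2 in Id2KO and 6.12 in WT KLRG1lo, and read 5.93 and 7.27 on arrays labelled BimKO. Adk, adenosine kinase, was at 0.89 in Id2KO against WT (SE 0.25, adjusted p = 0.275). It was also at 0.66 on arrays labelled BimKO against WT, and averaged 6.78 on those labelled Id2KOBimKO against 6.68 on those labelled BimKO.

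Among 18 other inhibitory receptors, 15 tested, 3 rose and 1 fell in WT KLRG1hi, where 0.942% of all genes tested passed. Klrg1, on which the cells were sorted, rose by 4.76 and is no finding. Fcgr2b, an inhibitory receptor for antibody, rose by 1.25 (SE 0.21, adjusted p = 0.00545) and Cd244a, a SLAM family receptor, by 1.45 (SE 0.30, adjusted p = 0.0259). Pecam1, an adhesion molecule with an inhibitory tail, fell by 1.13 (SE 0.20, adjusted p = 0.00977). None of the 15 passed in Id2KO against WT, where Cd5 was at 0.58 and Vsir at 0.71. Of 20 transcription factor genes tied to receptor expression 19 were tested, and 2 rose and 1 fell in WT KLRG1hi, against the same 0.942%. Between the WT sorts Prdm1 rose by 0.95 (SE 0.15, adjusted p = 0.00267) and Tbx21 by 0.83 (SE 0.16, adjusted p = 0.0203), while Bach2 fell by 0.67 (SE 0.15, adjusted p = 0.0467). In Id2KO none of the 19 passed, and Id3, a relative of Id2, was at 1.38 (SE 0.32, adjusted p = 0.156).

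Markers of further cells that carry these receptors were read beside them. Regulatory T cells express Ctla4 and Tigit, and B cells express Btla. Of 6 regulatory and CD4 T cell markers, all tested, none passed in Id2KO against WT or between the WT sorts, and their median was 0.03 and -0.01. The log2 of their summed signal ran from 9.13 to 9.19 in Id2KO and from 8.84 to 9.03 in WT KLRG1lo, while Foxp3 averaged 5.95 ± 0.15 in Id2KO (SD, n = 2) and 6.20 ± 0.19 in WT KLRG1lo (SD, n = 5). Of 8 B cell markers 7 were tested and none passed. Between the WT sorts 0 of these 7 were positive, with a median of -0.37, and in Id2KO against WT 1 was, with a median of -0.39. The log2 of their summed signal ran from 8.56 to 8.70 in Id2KO, from 8.31 to 8.56 in WT KLRG1hi and from 8.61 to 9.34 in WT KLRG1lo. On arrays labelled Id2KOBimKO it ran from 8.77 to 8.90, against 8.56 to 9.12 on those labelled BimKO. Its part in the Btla differences was not tested. In Id2KO against WT none of the 5 NK cell markers passed, with Klrb1c at -0.89 (SE 0.33, adjusted p = 0.275) and a median of -0.50, and their median mean Id2 effect was -0.44. Of 6 gamma delta T cell markers only Sox13 was on the array and tested, and it did not pass.

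**Figure D4:**
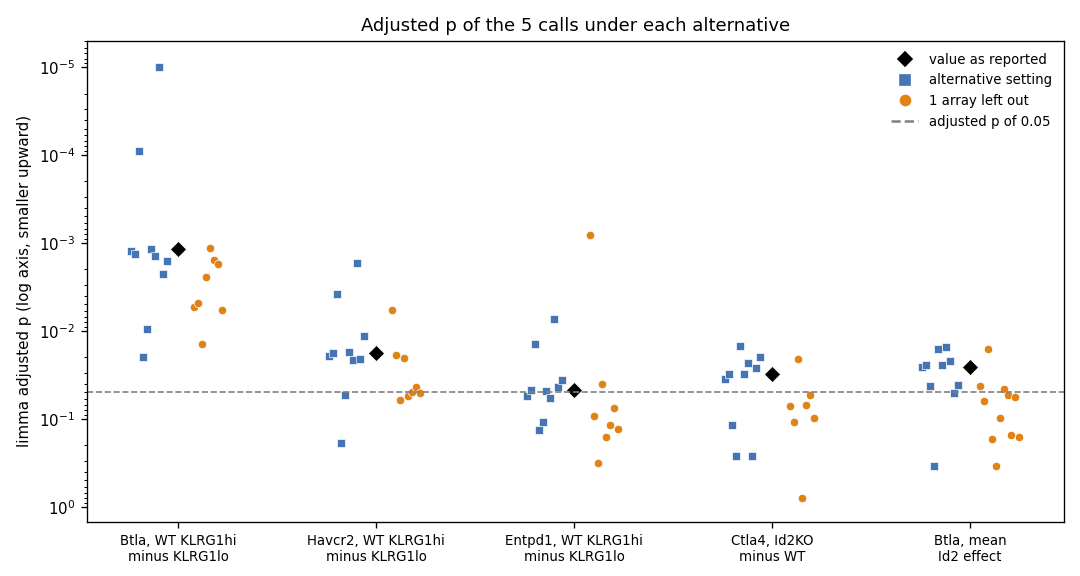
Limma adjusted p (vertical axis, log scale, smaller values upward) of the 5 calls, as reported (diamonds), under alternative settings (squares) and with 1 array left out (circles). The points of Btla between the WT sorts all lie past 0.05, and those of the other 4 calls lie on both sides.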

How the data were processed

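The deposited table holds the authors' linear intensity after RMA, for 34760 probe sets on 14 single-colour arrays. RMA and the assembly mm9 are named in the submitters' processing notes without a version. RNA was amplified before labelling with biotin, per the labels' protocols. No scanner file was used, the centring of arrays is unknown, and the number of arrays limits the precision.

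Signal was turned into log2 with no offset. Of the probe sets 21640 carried 1 gene name, 1321 several and 11799 none, and names were updated by Entrez number from RefSeq (GRCm38.p6), which held 21553 of them. The probe set with the highest mean stood for a gene. Genes above an array's 40th percentile on at least 2 arrays were tested with limma 3.58.1 (R 4.3.3), in 1 fit of group means over all arrays, with 9 residual degrees of freedom and 7.99 prior ones. All tests are two-sided, adjusted p-values are Benjamini-Hochberg over all 14438 genes, and intervals are at 95%. The fit was tested on simulated data. Nothing in the labels says that replicates came from separate animals, so the p-values reflect only how far these samples differ, which may be technical.

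The 8 genes and the lists of partners and markers were chosen with earlier results of these data known. All 8 are given in each comparison. From a list, genes are named from among those that passed and otherwise up to 2 with the smallest unadjusted p, mainly for the WT sorts and for Id2KO against WT, and not each of them is printed. Cd8a, Foxp3 and Cd4 as label checks, and Lyz2 and Cd74 on the BimKO arrays, were picked after their values were seen. For likeness, predicted and clone names were passed over. Alternatives were the filter, quantile normalization, a replicate block, an offset of 16, the mean over probe sets, only the groups compared, array spread or set as a term, a robust fit with a variance trend, and each array left out.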

Additional observations from a re-analysis of the deposited data

How the results depend on the processing

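Of 1000 values of single genes under alternatives, 935 kept their direction and their side of the threshold, 34 lost a call, 12 gained one and 19 changed sign. Most of these values never passed, and only those of the 5 calls could lose one. Between the WT sorts the call was lost in 10 of 18 for Entpd1, 5 of 18 for Havcr2 and none for Btla. It was lost in 9 of 17 for Ctla4 in Id2KO and 10 of 21 for Btla as the mean Id2 effect. Of the 8 genes, 3 passed between the WT sorts. The count was 5 with the array spread as a covariate, 1 with only the groups compared, 1 with a replicate block and 1 to 4 with an array left out. In Id2KO against WT, where 1 passed, it was 2 with an offset of 16, 0 with quantile normalization, the spread as a covariate or a replicate block, and 0 to 2 with an array left out. For the mean Id2 effect, also 1, it was 3 with the spread as a covariate or only the groups compared, 0 with the array set as a term or a replicate block, and 0 to 1 with an array left out. In Id2KOBimKO against WT it was 1 with the spread as a covariate and otherwise 0, and in the other comparisons 0 throughout, also with an array left out.

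Over all genes, the 136 calls between the WT sorts became 376 with the spread as a covariate, 226 with quantile normalization, 78 with only the groups compared, 42 with a replicate block and 45 to 179 with an array left out. The 16 in Id2KO became 26 with only the groups compared, 5 with a block and 4 to 39 with an array left out. The 26 of the mean effect became 52 with the spread, 8 with a block and 13 to 31, and the 9 in Id2KOBimKO against WT became 24, 0 and 0 to 13. The 0 of Id2KOBimKO against BimKO became 4 with the spread, 1 with quantile normalization and 0 to 3, and the 0 of BimKO against WT became 0 to 8.

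For same-numbered arrays, the correlation of their deviations from group means ran from -0.52 to 0.41 and was over 0.1 for 4 of 11 pairs. Between the WT sorts, with 3 and 5 arrays, it was -0.18, 0.06 and -0.52, none of them over 0.1. In each other comparison a group has 2 arrays, whose deviations mirror each other, so those values cannot decide whether replicates were paired. Results with the replicate block are therefore given as well. Entpd1 between the WT sorts lost its call with no filter (adjusted p = 0.0549), an offset of 16 (0.0584), only the groups compared (0.108), a replicate block (0.133), and without WT KLRG1hi replicates 2 and 3 (0.319 and 0.159) or WT KLRG1lo replicates 1, 3, 4 and 5 (0.0926, 0.117, 0.0747 and 0.131). The cause was not tested.

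None of the 19 values that changed sign was past the threshold before or after. With an array left out, the lowest and highest values between the WT sorts were -0.31 and 0.10 for Lag3 and -0.23 and 0.14 for Cd160. In Id2KO against WT they were -0.079 and 0.069 for Lag3 and -0.27 and 0.098 for Cd160, while the spread as a covariate gave -0.45 and -0.76. In Id2KOBimKO against BimKO they were -0.45 and 0.027 for Havcr2 and -0.036 and 0.11 for Pdcd1, which was at -0.0021 with the spread as a covariate. In BimKO against WT they were -0.48 and 0.0011 for Havcr2, -0.011 and 0.33 for Tigit and -0.0018 and 0.71 for Entpd1. In Id2KOBimKO against WT they were -0.065 and 0.083 for Lag3. In the interaction they were -0.035 and 0.45 for Havcr2, -0.54 and 0.0071 for Lag3 and -0.51 and 0.20 for Entpd1, and with the spread as a covariate Lag3 was at 0.077, Tigit at 0.12 and Entpd1 at 0.22.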

Other observations

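Itgam, an integrin chain that marks myeloid cells and is also expressed by effector T cells, read 8.79 and 8.82 log2 in Id2KO and 7.97, 7.83, 7.51, 7.85 and 7.50 in WT KLRG1lo. Itgam was at 1.07 in Id2KO against WT (SE 0.23) and at 0.99 on arrays labelled Id2KOBimKO against those labelled BimKO (SE 0.28). Neither of these 2 differences passed. Its mean Id2 effect was 1.03 (SE 0.18, adjusted p = 0.0168), a mean that donor sex enters through the Id2KO arrays. Itgam thus rose in this mean as well as in WT KLRG1hi. Havcr2 and Entpd1 rose in WT KLRG1hi but were at -0.32 and -0.98 as the mean Id2 effect.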
